A study of Mus musculus with 5 samples.

Results

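The 46 genes described here are interferon-stimulated genes of the mouse taken from a list written by family. They were measured in natural helper cells of the lung, innate lymphocytes without antigen receptors that are also called group 2 innate lymphoid cells. A gene counted as measured when a probe set was annotated to its symbol alone, and 39 of the 46 were, among 19938 genes tested. Where a gene had several such probe sets, the one with the highest mean over all 5 arrays was used. Of the other 7, Isg15, Gbp2, Gbp6, Irgm2, Igtp and Ifi47 lie on probe sets annotated to more than 1 gene, and Ifi44 was matched to none. None of them is in the counts, medians and tests of members.

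Both groups were cells sorted from lungs of naive C57Bl/6 mice of 6 to 8 weeks, lineage-negative, positive for Sca-1, CD127 and CD25, and with little or no c-Kit. The unstimulated group (3 arrays) was lysed straight after the sort. The stimulated group (2 arrays) was kept for 3 days with 60 ng/ml of the phorbol ester PMA, an activator of protein kinase C, and 500 ng/ml of ionomycin, a calcium ionophore, before lysis. No cultured sample without the activators was analysed here, so culture and stimulation cannot be told apart. The labels name the source as lung leukocytes and do not say whether arrays came from separate mice or cultures, so the spread between arrays may be technical.

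Interferons are secreted proteins that cells release on sensing infection. Type I interferons signal through the receptor made of IFNAR1 and IFNAR2, the kinases JAK1 and TYK2, and a complex that holds STAT2 and IRF9 and binds the interferon-stimulated response element in target promoters. Interferon gamma signals through IFNGR1 and IFNGR2 and the kinases JAK1 and JAK2, and its targets carry the gamma-activated site. IFIT, OAS, MX and ISG15 genes are classical targets of type I interferon, while guanylate-binding proteins (GBP) and immunity-related GTPases (IRG), which act on vacuoles that hold intracellular microbes, respond strongly to interferon gamma as well.

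All values are the authors' deposited log2 expression values from RMA, a method that corrects, normalizes and summarizes the probes of an array. The medians over 35556 probe sets were 5.63 to 5.66 on the 5 arrays, and the probe sets' means had a lower quartile of 4.51, a median of 5.66 and an upper quartile of 7.06. Correlations across probe sets were 0.980 to 0.989 between unstimulated arrays, with the 2 lower ones those of array 3, and 0.989 for the stimulated pair. For pairs across groups they were 0.956 to 0.963 with unstimulated arrays 1 and 2, and 0.968 and 0.969 with array 3. Over all probe sets, array 3 was thus nearer to the stimulated arrays than arrays 1 and 2 were. Of the 14 genes listed as natural helper cell markers 12 were measured, and all 12 lay above the upper quartile on the unstimulated arrays. By the test given below, 5 of these fell (Rora, Id2, Il7r, Kit and Il17rb), against 0.963% of all genes, and none rose, against 0.737%. Il7r stayed at 10.1 or above on every array, while Kit (7.12 and 6.84) and Il17rb (6.86 and 6.05) came near or under that quartile on the stimulated arrays. Xist stood at 9.65 ± 0.56 (SD, n = 3) in unstimulated and 4.13 ± 0.04 (SD, n = 2) in stimulated arrays, the widest fall of any gene (-5.52 ± 0.38 SE, adjusted p = 0.0352). The labels give no sex, so a difference in sex between the groups, if there was one, cannot be told apart from the treatment. Differences below are stimulated minus unstimulated, from a limma fit over all genes, each with its standard error (SE) and a Benjamini-Hochberg adjusted p over all 19938 genes. A gene is said to have risen or fallen only at an adjusted p under 0.05.

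Among the 39 genes 1 fell, Samd9l, and none rose. Over all genes, 192 (0.963%) were called lower and 147 (0.737%) higher, or 1.7% in either direction. With each array centred on its median these counts were 526 lower and 660 higher, so the larger share turned from lower to higher. At an unadjusted p under 0.05 there were 6 members lower and 2 higher, 8 of 39 in all, against 19.9% of all genes. The median difference of the members was -0.23, against 0.00 over all genes tested, and 29 of the 39 read lower after PMA and ionomycin. That median was -0.09 without unstimulated array 1 and -0.04 against array 3 alone. In 15 members both stimulated arrays lay under all 3 unstimulated ones (38.5%, against 14.0% of all genes), and in 2, Gbp5 and Ifitm1, both lay above them (5.13%, against 18.6%). The group means lay at least 1 log2 unit, or 2-fold, lower in 7 members (17.9%, against 2.73% of all genes) and higher in 2 (5.13%, against 2.23%). Against array 3 alone, Samd9l (-3.36) and Ifit3 (-1.02) of the 7 kept that size. Ifit1, Mx2, Oasl2, Ifih1 and Rtp4 then differed by -0.86 to -0.03. The 2 higher members, Gbp5 and Ifitm1, then differed by 1.67 and 1.45. The unstimulated arrays did not read alike: array 3 was the lowest of the 3 for 27 members (69.2%, against 23.1% of all genes) and lay at least 1 log2 unit under both others for 9 (23.1%, against 0.702%). With arrays 1 and 2 alone as the unstimulated group, 24 members had both stimulated arrays below (61.5%, against 17.8%) and 2 both above (5.13%, against 22.1%). With array 3 alone, 16 had both below (41.0%, against 26.0%) and 13 both above (33.3%, against 29.3%). Counts of lowest or non-overlapping arrays take strict order only, so tied values can keep a gene out. Values shared between arrays were held by 62.0% of all genes but 23.1% of members. The shares of all genes in such counts, here and below, may be low for that reason. No share was taken over untied genes alone.

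**Figure D1:**
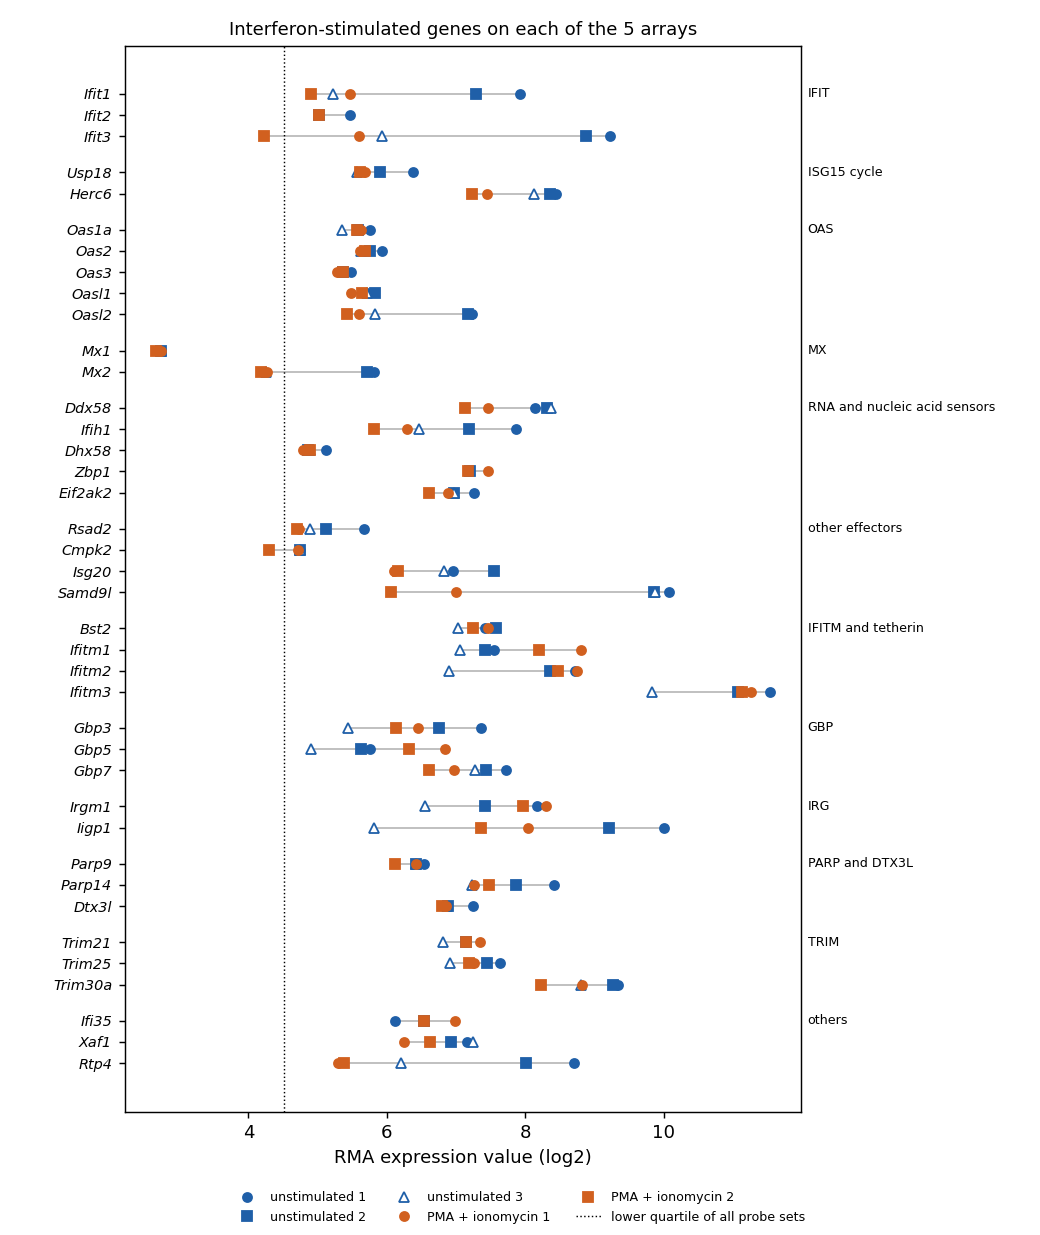
RMA expression value (log2, x axis) of the 39 measured interferon-stimulated genes on each array, by family, with unstimulated arrays in blue (array 3 as an open triangle) and PMA + ionomycin arrays in orange. The grey line joins a gene's lowest and highest value, and the dotted line marks the lower quartile of all probe sets at 4.51. Ifit3, Rtp4, Iigp1 and Ifit1 spread widely within the unstimulated group, while Samd9l reads 9.86 to 10.1 on all 3 unstimulated arrays and 6.06 to 6.99 on the stimulated ones.

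The IFIT genes code for proteins that bind viral RNA ends and block their translation. Ifit3 read 9.23, 8.88 and 5.93 on unstimulated arrays 1, 2 and 3, and 5.60 and 4.23 on stimulated arrays 1 and 2. The stimulated arrays lay under all unstimulated ones, but unstimulated array 3 was nearer to them than to the other two. Ifit1 read 7.92, 7.29 and 5.22, against 5.46 and 4.90, so that array 3 fell among the stimulated values. Ifit2 stayed between 5.0 and 5.47 on all 5 arrays, and 3 of them shared the value 5.02. The differences were -3.10 ± 1.31 SE for Ifit3 (8.58-fold, adjusted p = 0.339), -1.63 ± 0.97 for Ifit1 (adjusted p = 0.472) and -0.16 ± 0.18 for Ifit2 (adjusted p = 0.643), and none passed the test. Against array 3 alone, they were -1.02, -0.04 and -0.01.

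The promoters of Ifit3 and Ifit1 are shown because these 2 genes had the widest differences among members whose upstream sequence held a searched motif. Searched on both strands were the core of the interferon-stimulated response element, GAAA, any 2 bases and GAAA (TTTC, any 2 bases and TTTC on the other strand), and the gamma-activated site, TTC, any 3 bases and GAA, which reads the same on both. RefSeq promoters of GRCm38.p6, 250 bases before to 50 after a gene's start, were in the table for 35 of the 46 members. Only bases before the start are printed, 5′ to 3′ on the gene's strand, with matches in capitals.
Ifit3, chr19:34583363-34583528, plus strand: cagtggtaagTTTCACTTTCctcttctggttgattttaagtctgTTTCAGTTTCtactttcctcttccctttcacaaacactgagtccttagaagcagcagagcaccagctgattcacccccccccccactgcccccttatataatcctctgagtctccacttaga
Ifit1, chr19:34640769-34640888, plus strand: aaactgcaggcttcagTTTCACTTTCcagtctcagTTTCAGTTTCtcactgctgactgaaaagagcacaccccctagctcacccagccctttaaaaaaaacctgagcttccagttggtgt
Each holds 2 matches to the response element, TTTCACTTTC followed by TTTCAGTTTC, and no gamma-activated site.

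Over the 35 members with a promoter, 21 (60.0%) held a response element match, 11 (31.4%) a gamma-activated site match, 8 of these both, and 11 neither. Over all 27025 genes of the table, 3.99% held the first and 9.55% the second. Among IFIT, OAS and ISG15-cycle genes, 5 of 9 held a response element match and 2 of 9 a gamma-activated site match. Among GBP and IRG genes these counts were 7 of 8 and 4 of 8. A match describes the letters of the window and not a bound site.

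ISG15 is a ubiquitin-like protein that is joined to other proteins, by HERC6 in the mouse as the last enzyme, and removed by USP18, which also damps signalling at the type I interferon receptor. Herc6 read 8.45, 8.36 and 8.13 on the unstimulated arrays and 7.45 and 7.24 on the stimulated ones, which lay apart from all 3. Its difference of -0.97 ± 0.13 SE did not pass the test (adjusted p = 0.0696). Usp18 read 6.37, 5.91 and 5.57, against 5.69 and 5.61, a difference of -0.30 ± 0.27 (adjusted p = 0.562), with array 3 the lowest of all 5.

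The OAS genes code for synthetases of 2-5A, the messenger that activates RNase L, and for OAS-like proteins. Oasl2 read 7.23, 7.18 and 5.82, against 5.60 and 5.42, and its groups did not overlap, although array 3 lay nearer to the stimulated arrays than to the other unstimulated ones. The difference was -1.23 ± 0.54 SE (adjusted p = 0.360). Oas1a, Oas2, Oas3 and Oasl1 lay between 5.27 and 5.94 on every array, and their differences ran from -0.19 ± 0.07 (Oasl1, adjusted p = 0.286) to 0.03 ± 0.14 (Oas1a, adjusted p = 0.947). The Oasl2 promoter, chosen as a member with a wide difference and no match, reads as follows.
Oasl2, chr5:114896814-114896933, plus strand: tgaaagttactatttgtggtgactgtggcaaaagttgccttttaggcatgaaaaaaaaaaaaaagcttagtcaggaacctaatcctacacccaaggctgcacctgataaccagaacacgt
Of the MX genes, which code for antiviral GTPases of the dynamin family, Mx2 read 5.82, 5.71 and 4.26, against 4.27 and 4.17. Unstimulated array 3 lay between the stimulated arrays, at a level below the lower quartile (difference -1.04 ± 0.59 SE, adjusted p = 0.472). Mx1 read 2.74 on 4 arrays and 2.66 on stimulated array 2, so these values give no difference to describe.

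Sensors of viral nucleic acid fell into distinct patterns. Ddx58, which codes for the RNA helicase RIG-I, read 8.14, 8.32 and 8.37 on the unstimulated arrays and 7.47 and 7.13 on the stimulated ones. Here array 3 was the highest of all, and the groups lay apart. The difference was -0.98 ± 0.14 SE and did not pass the test (adjusted p = 0.0732). Ifih1, the gene of the related helicase MDA5, read 7.87, 7.19 and 6.47, against 6.29 and 5.82, a difference of -1.12 ± 0.50 (adjusted p = 0.367), with array 3 close above the stimulated values. Dhx58, which codes for the third helicase of the family, LGP2, lay between 4.79 and 5.11. Zbp1, the gene of a sensor of Z-form nucleic acid, read 7.19, 7.20 and 7.18, against 7.46 and 7.17. Eif2ak2, the gene of the kinase PKR that stops translation on binding double-stranded RNA, read 7.26, 6.97 and 6.97, against 6.88 and 6.61 (difference -0.32 ± 0.15, adjusted p = 0.376).

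Samd9l, whose product restrains translation and cell growth, was the one member called. It read 10.1, 9.86 and 9.88 on the unstimulated arrays and 6.99 and 6.06 on the stimulated ones, so array 3 did not stand apart here. It fell by 3.42 on the log2 scale (SE 0.33), or 10.7-fold, with an adjusted p of 0.0482. The call sat close to the threshold: the adjusted p was 0.139 without unstimulated array 1, 0.162 without array 2, 0.0989 without array 3, 0.325 against array 3 alone and 0.0654 with robust variances, and ran from 0.0139 to 0.325 over 15 other fits, 9 of which made the call. In 3 of these fits 1 group had a single array, whose spread was taken to be that of the other group: those without stimulated array 1 or 2, which made the call, and that against array 3 alone. Its difference ran from -3.88 to -2.95 in those fits.

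Other effectors read lower with smaller differences. Isg20, the gene of an RNA exonuclease, read 6.96, 7.54 and 6.82, against 6.10 and 6.17, and the groups did not overlap (difference -0.98 ± 0.26 SE, adjusted p = 0.167). Rsad2, which codes for viperin, an enzyme that makes a chain-terminating nucleotide, read 5.67, 5.12 and 4.89, against 4.73 and 4.70 (-0.51 ± 0.27, adjusted p = 0.441). Its genomic neighbour Cmpk2, the gene of a mitochondrial nucleotide kinase, held 1 value, 4.75, on all 3 unstimulated arrays and read 4.71 and 4.30 on the stimulated ones (-0.25 ± 0.14, adjusted p = 0.472). The promoter of Samd9l, the member with the widest difference, holds neither motif in the window searched and is printed like that of Oasl2. That of Isg20, which holds a gamma-activated site match, was chosen by the size of the difference, like those of Ifit3 and Ifit1.
Samd9l, chr6:3399572-3399691, minus strand: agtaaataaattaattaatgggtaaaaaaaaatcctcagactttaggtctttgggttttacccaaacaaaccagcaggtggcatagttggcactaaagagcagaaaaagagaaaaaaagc
Isg20, chr7:78913304-78913423, plus strand: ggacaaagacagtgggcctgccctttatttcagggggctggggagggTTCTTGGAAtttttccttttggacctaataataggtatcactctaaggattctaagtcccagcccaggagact
The match in Isg20 is TTCTTGGAA, which starts 73 bases before the gene's start.

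The IFITM genes, whose small membrane proteins block the fusion of enveloped viruses, did not read lower after PMA and ionomycin. Ifitm1 read 7.55, 7.42 and 7.05 on the unstimulated arrays and 8.81 and 8.20 on the stimulated ones, with no overlap, a difference of 1.16 ± 0.27 SE (2.23-fold, adjusted p = 0.138). The second Ifitm1 probe set differed by 1.60. Ifitm2 read 8.72, 8.35 and 6.90, against 8.74 and 8.48, and Ifitm3 read 11.5, 11.1 and 9.83, against 11.3 and 11.1. In both genes the stimulated values lay near unstimulated arrays 1 and 2, and only array 3 was low. The fitted differences of 0.62 ± 0.66 and 0.38 ± 0.60 did not pass (adjusted p = 0.627 and 0.719), and against array 3 alone they were 1.71 and 1.37. The 3 probe sets of Ifitm2 gave differences of 0.62, 0.65 and 0.74. IFITM genes are close copies of each other, and probes may not keep them apart. Bst2, the gene of tetherin, which holds budding virus at the cell surface, read 7.42, 7.58 and 7.02, against 7.47 and 7.25 (difference 0.02 ± 0.21, adjusted p = 1.0).

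The guanylate-binding proteins did not move as a block. Gbp5, whose product also promotes inflammasome assembly, read 5.76, 5.62 and 4.90 on the unstimulated arrays and 6.84 and 6.31 on the stimulated ones, which lay above all 3. Its difference was 1.15 ± 0.36 SE (2.22-fold, adjusted p = 0.212). Gbp7 went the other way, with 7.72, 7.43 and 7.28 against 6.97 and 6.61, also without overlap (-0.69 ± 0.20, adjusted p = 0.186). Gbp3 read 7.37, 6.75 and 5.44, against 6.45 and 6.13, so the stimulated arrays fell between unstimulated arrays 2 and 3 (-0.23 ± 0.67, adjusted p = 0.876). None of the 3 passed the test. GBP genes share long stretches of sequence, so signals of neighbours may mix.

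Both measured IRG genes read lowest on unstimulated array 3. Irgm1, which codes for a GTPase that regulates the other IRG proteins, read 8.17, 7.42 and 6.56, against 8.30 and 7.96 (difference 0.75 ± 0.56 SE, adjusted p = 0.485). Iigp1, which codes for an effector that coats the vacuole of intracellular parasites, read 10.0, 9.21 and 5.81, against 8.04 and 7.36. Its unstimulated arrays differed more among themselves, by 4.2 log2 units, than those of any other measured member. The fitted difference was -0.64 ± 1.52 (adjusted p = 0.832), and it was -1.91 without array 3 and 1.89 against array 3 alone. The next 3 promoters were chosen, like those of Ifit3 and Ifit1, by the size of the difference among members with an upstream motif match.
Gbp5, chr3:142496684-142496933, plus strand: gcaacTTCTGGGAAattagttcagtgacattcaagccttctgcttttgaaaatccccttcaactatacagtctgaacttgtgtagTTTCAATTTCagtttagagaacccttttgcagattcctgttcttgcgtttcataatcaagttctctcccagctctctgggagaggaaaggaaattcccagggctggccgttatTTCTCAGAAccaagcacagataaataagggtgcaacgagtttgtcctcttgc
Gbp7, chr3:142530216-142530335, plus strand: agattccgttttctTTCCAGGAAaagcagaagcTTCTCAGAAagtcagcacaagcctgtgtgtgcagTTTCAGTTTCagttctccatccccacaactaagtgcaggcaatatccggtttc
Irgm1, chr11:48871421-48871540, minus strand: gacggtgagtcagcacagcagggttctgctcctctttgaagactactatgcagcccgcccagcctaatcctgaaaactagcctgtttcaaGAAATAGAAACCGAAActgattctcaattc
Gbp7 holds gamma-activated site matches at 106 and 87 bases before its start and a response element match at 53, all within the bases shown. Gbp5 holds gamma-activated site matches at 245 and 52 bases and a response element match at 165. In Irgm1, 2 overlapping response element matches start 30 and 24 bases before the start.

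The remaining members are ADP-ribosylation, ubiquitin ligase and less well known genes. Parp14, which codes for a mono-ADP-ribosyltransferase, read 8.41, 7.86 and 7.24, against 7.26 and 7.48 (-0.46 ± 0.40 SE, adjusted p = 0.547). Parp9 and its ubiquitin ligase partner Dtx3l lay between 6.12 and 6.54 and between 6.79 and 7.24. Trim30a read 9.35, 9.27 and 8.81, against 8.83 and 8.23 (-0.61 ± 0.28, adjusted p = 0.379). Trim25, the gene of a ligase that acts on RIG-I, and Trim21, the gene of a cytosolic antibody receptor, differed by -0.11 ± 0.25 and 0.21 ± 0.15, and both were lowest on unstimulated array 3. Rtp4, which codes for a chaperone of receptor transport, read 8.70, 8.01 and 6.20, against 5.29 and 5.39. Its groups lay apart, with array 3 between (-2.30 ± 0.87, 4.92-fold, adjusted p = 0.290). Xaf1, the gene of a pro-apoptotic partner of XIAP, read 7.16, 6.92 and 7.25, against 6.25 and 6.62, with no overlap (-0.67 ± 0.17, adjusted p = 0.158). Ifi35 read 6.12, 6.53 and 6.53, against 6.98 and 6.53 (0.36 ± 0.22, adjusted p = 0.472).

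Set side by side, the families parted according to which unstimulated arrays they were held against. For the 10 measured IFIT, OAS and ISG15-cycle genes the median difference was -0.25 against all 3 unstimulated arrays, -0.36 against arrays 1 and 2 and -0.05 against array 3. For the 5 measured GBP and IRG genes, of 10 listed, it was -0.23, -0.77 and 1.58, and for the 4 IFITM and tetherin genes 0.50, -0.02 and 1.41. Listed genes on shared probe sets are not in these medians. Against all 3 unstimulated arrays, the shared probe sets of GBP and IRG genes differed by 0.48 to 0.92. Only that of Irgm2 and Igtp had both stimulated arrays above all unstimulated ones. The shared probe set of Isg15 differed by -1.19, and none of these was tested. Over all genes tested the 3 medians were 0.00. Both stimulated arrays lay above unstimulated array 3 for 4 of the 5 GBP and IRG genes, all but Gbp7, for 4 of 4 IFITM and tetherin genes, and for 2 of the 10 IFIT, OAS and ISG15-cycle genes, Usp18 and Oas1a. The share of all genes was 29.3%. The families hold few genes and array 3 is a single array, so these counts carry no test.

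**Figure D2:**
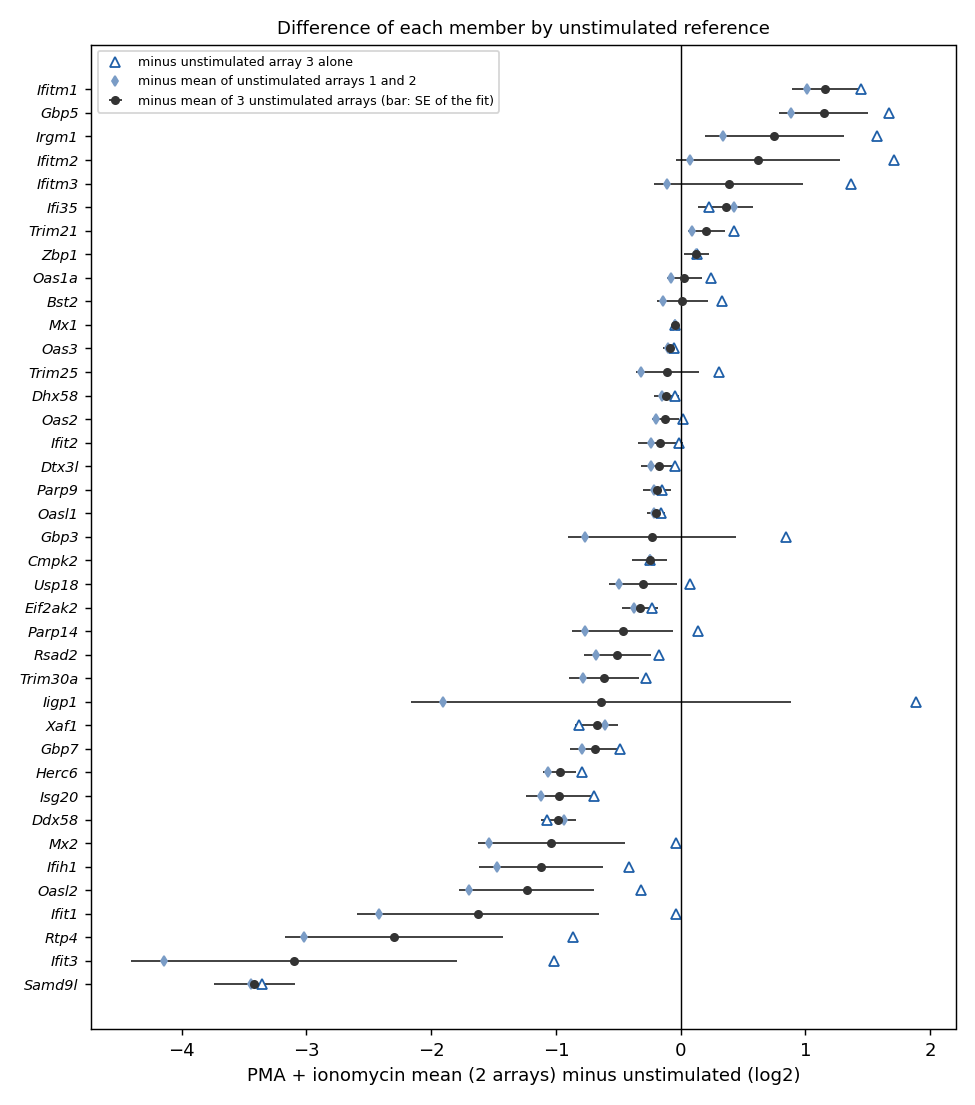
Difference of each member (log2, x axis), stimulated mean of 2 arrays minus 3 unstimulated references: the mean of all 3 arrays (black, with the SE of the fit), arrays 1 and 2 (light blue diamonds) and array 3 alone (open triangles). Samd9l and Ddx58 give similar values with each reference, while Iigp1 ranges from -1.91 to 1.89 and Gbp3 from -0.77 to 0.85.

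Marker genes were also unequal among the unstimulated arrays. Of natural helper cell markers 8 of 12 were lowest there on array 3, but 0 lay at least 1 log2 unit under both others. Their median for array 3 minus the mean of arrays 1 and 2 was -0.10, against 0.00 over all genes. In the lists of other cell types this median ran from -0.89 (T cell) to 0.02 (mast cell and basophil), with -0.87 for endothelial markers. Among other lung cell types, all 7 endothelial markers were lowest on array 3, as were 6 of 7 neutrophil, 7 of 8 T cell, 7 of 12 dendritic cell and MHC class II, 9 of 16 macrophage and monocyte, 5 of 9 epithelial, 5 of 8 NK cell, 4 of 6 B cell, 3 of 7 fibroblast and 1 of 6 mast cell and basophil markers, against 23.1% of all genes. Cdh5, H2-Aa, S100a8 and Cd3d were picked for a wide spread over the unstimulated arrays, each the widest of its list, so other markers spread less. The unstimulated range of endothelial markers went from 2.59 for Cdh5 to 0.45 for Tie1. Cdh5, which codes for the endothelial adhesion protein VE-cadherin, read 9.71, 9.06 and 7.12, against 5.59 and 6.19 on the stimulated arrays. The class II gene H2-Aa read 8.48, 8.25 and 6.35, against 6.68 and 6.07, and the neutrophil gene S100a8 read 8.06, 6.81 and 5.45, against 3.90 and 4.33. The T cell receptor complex gene Cd3d read 8.25, 8.65 and 6.47, against 7.68 and 6.75, while Cd28 read 8.14, 8.12 and 7.08, against 9.19 and 9.22. Summed on the linear scale, the endothelial list came to 567 to 1905 on unstimulated and 412 to 464 on stimulated arrays, the dendritic list to 578 to 1303 and 524 to 558, the neutrophil list to 312 to 1262 and 178 to 180, the T cell list to 1789 to 3004 and 1745 to 2070, and the macrophage list to 3147 to 3321 and 1415 to 1774. The largest term of the macrophage sum was Ccr2, which was highest on array 3 (10.4, 10.5 and 10.9), while Lyz2, Mpeg1 and Cd14 were lowest there, and that of the T cell sum was Cd3g. RMA gives every probe set a value, so none was at 0, and levels differed within a list. Siglech, a marker of plasmacytoid dendritic cells, and the macrophage markers Csf1r and Marco lay under the median of all probe sets on every array. H2-Aa and Ccr2 of the same lists lay above it on every array. Fewer cells of a type and less RNA per cell cannot be told apart in such samples. The sort took lineage-negative cells with Sca-1, CD127 and CD25, and which cell types the lineage stain covered is not given here. The part of these other cell types in the members' values was not tested.

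**Figure D3:**
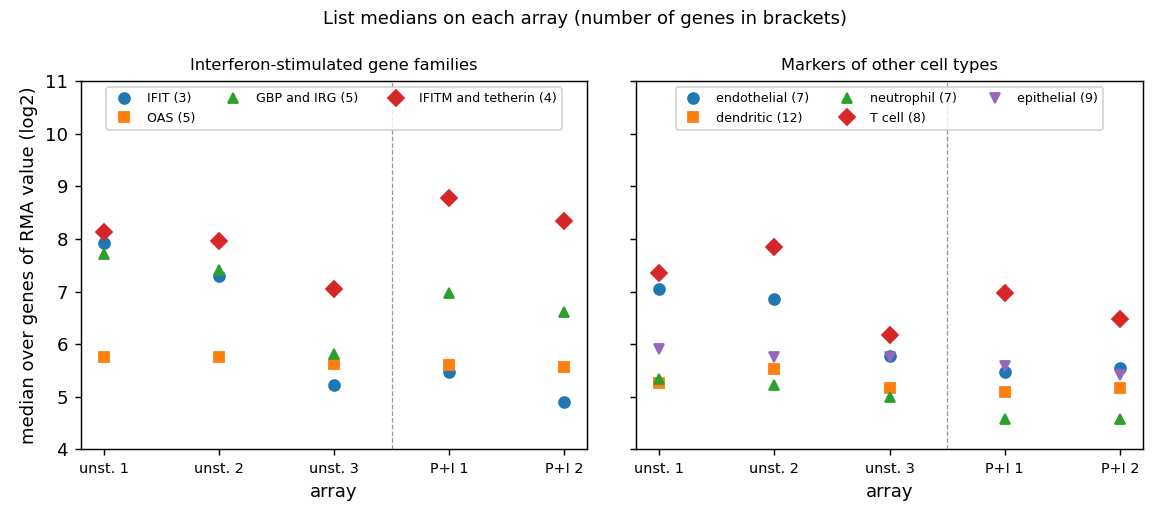
Median RMA value (log2, y axis) of 4 interferon-stimulated gene families (left) and 5 marker lists of other cell types (right) on each array, with the number of measured genes in brackets and a dashed line between unstimulated and PMA + ionomycin arrays. The IFIT median is 7.92 and 7.29 on unstimulated arrays 1 and 2 and 5.22 on array 3, and the endothelial median is 7.05, 6.86 and 5.78.

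Upstream of these genes, 16 interferon ligand genes were measured and none passed the test, against 1.7% of all genes called in either direction. Ifng, the gene of interferon gamma, read 6.30, 6.42 and 5.21 on the unstimulated arrays and 9.80 and 7.43 on the stimulated ones, which lay apart from them and from each other (2.64 ± 0.92 SE, adjusted p = 0.254). Ifnb1, the gene of interferon beta, read 3.97 to 4.47, below the lower quartile on every array. The Ifna genes, for interferon alpha, and the related Ifnab differed by -0.27 to 0.34. Ifnk and Ifnz, which code for further type I interferons, differed by -1.27 ± 0.28 and 0.57 ± 0.31 (adjusted p = 0.129 and 0.450).

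Of 6 receptor genes, 1 fell (against 0.963% of all genes), and 5 had groups that did not overlap, all lower after PMA and ionomycin (against 14.0%). Ifngr1, which codes for the ligand-binding chain of the interferon gamma receptor, read 10.2, 10.3 and 10.2, against 8.94 and 8.79. It fell by 1.38 on the log2 scale (SE 0.06, adjusted p = 0.0229). The adjusted p was 0.0876 without unstimulated array 1, 0.102 without array 2, 0.0576 without array 3 and 0.180 against array 3 alone. Its partner Ifngr2 read 8.01, 8.45 and 8.12, against 6.88 and 6.77 (-1.37 ± 0.16, adjusted p = 0.0598). For the type I receptor, Ifnar1 read 8.04, 8.28 and 7.91, against 7.20 and 7.55 (-0.70 ± 0.17, adjusted p = 0.151), and Ifnar2 read 9.03, 9.05 and 8.98, against 8.62 and 8.69 (-0.36 ± 0.04, adjusted p = 0.0520). Unlike for Ifit1 and Ifit3, array 3 sat with the other unstimulated arrays in these genes. Il10rb, a chain shared with the interferon lambda receptor, differed by -0.43 ± 0.07 (adjusted p = 0.0884), and Ifnlr1, the other chain, lay between 5.31 and 5.33.

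None of the measured genes for JAK kinases, STAT2, IRF9 or the IRF family passed the test, against 1.7% of all genes called in either direction. Jak1 read 10.6, 10.7 and 10.6, against 10.0 and 10.2 (-0.51 ± 0.08 SE, adjusted p = 0.0794), and Jak2 differed by -0.44 ± 0.14 (adjusted p = 0.225). Tyk2 (-0.06 ± 0.07), Stat2 (-0.22 ± 0.16) and Irf9 (0.12 ± 0.27) had overlapping groups. Among transcription factors of the IRF family, Irf8, known as a target of interferon gamma and a factor of myeloid cells, read 5.84, 6.20 and 5.66, against 7.64 and 7.61 (1.72 ± 0.18, adjusted p = 0.0529). Irf7, the amplifier of type I interferon production, read 6.17, 6.18 and 5.80, against 5.27 and 5.50 (-0.66 ± 0.17, adjusted p = 0.157). Irf1 differed by -0.20 ± 0.14 (adjusted p = 0.475), Irf2 by 0.09 ± 0.08, and Irf3 and Irf5 by -0.0017 and -0.01.

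**Figure D4:**
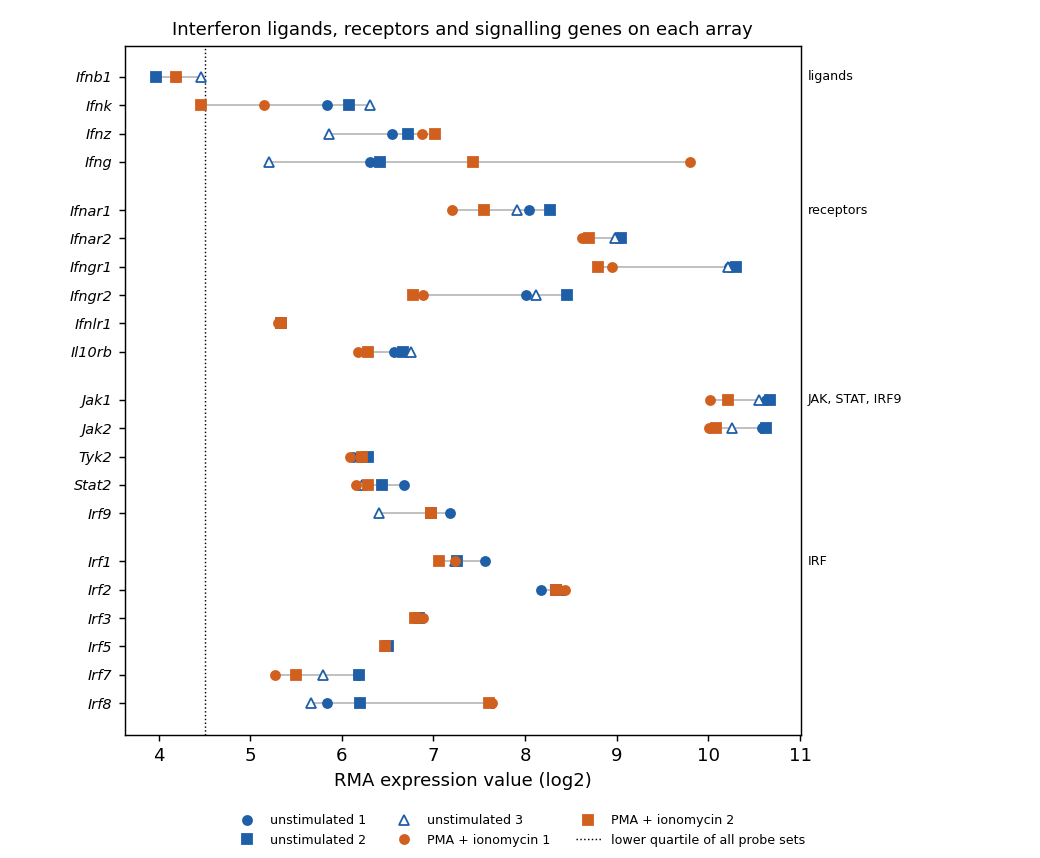
RMA expression value (log2, x axis) of interferon ligands, receptors, signalling genes and IRF factors on each array, with symbols as in the plot of members by array. Ifng and Irf8 read higher on both PMA + ionomycin arrays than on any unstimulated array, and Ifngr1, Ifngr2, Ifnar1 and Ifnar2 read lower.

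Of 10 measured genes that lead to interferon production, none passed the test, against 1.7% of all genes called in either direction. Tlr3, the gene of an endosomal receptor for double-stranded RNA, read 6.41, 5.93 and 5.25, against 4.74 and 5.0 (-0.99 ± 0.40 SE, adjusted p = 0.320). The adaptor gene Myd88 read 6.86, 6.81 and 6.42, against 7.45 and 7.42 (0.74 ± 0.16, adjusted p = 0.125), and the kinase gene Ikbke differed by -0.61 ± 0.12 (adjusted p = 0.106). Of 7 negative regulators 1 fell, against 0.963% of all genes. Irf2bp2, which codes for a corepressor that binds IRF2, fell by 1.55 (SE 0.11, adjusted p = 0.0355), with 8.16, 8.16 and 7.91 against 6.59 and 6.46. The adjusted p was 0.106, 0.127 and 0.0508 without unstimulated array 1, 2 or 3, 0.0806 and 0.0789 without stimulated array 1 or 2, 0.169 against array 3 alone and 0.0508 with robust variances. The phosphatase gene Ptpn6, for SHP-1, differed by 1.20 ± 0.18 (adjusted p = 0.0773), and Pias1 by -0.43 ± 0.07 (adjusted p = 0.0794).

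A further list of 69 interferon-responsive genes, of which 54 were measured, held 1 gene that fell and none that rose, against 1.7% of all genes called in either direction. Its median difference was -0.27, with 40 genes lower and 14 higher by sign, against 9304 lower and 10634 higher among all genes. Ifi203, which codes for a nuclear protein of the PYHIN family of DNA sensors, read 10.2, 10.1 and 10.3, against 7.77 and 7.39, and fell by 2.63 (SE 0.15, adjusted p = 0.0307). As in Samd9l, its unstimulated arrays read alike. Its adjusted p was 0.0968, 0.109 and 0.0633 without unstimulated array 1, 2 or 3, and 0.205 against array 3 alone. The other genes with the widest differences were Cxcl10, a chemokine gene (-2.99 ± 0.51 SE, adjusted p = 0.0914), Ddx60, the gene of a helicase that aids RIG-I (-1.85 ± 0.19, adjusted p = 0.0526), Ifi27 (-1.50 ± 0.23, adjusted p = 0.0808), Slfn1 (-1.47 ± 0.63, adjusted p = 0.350) and Ifit3b (-1.35 ± 1.02, adjusted p = 0.492). Ifit3b read 5.15, 4.96 and 2.46, against 3.00 and 2.69, a pattern close to that of Ifit1. Chosen after their values were seen, Gbp4 read 9.35, 8.96 and 8.56, against 9.87 and 9.57 (0.76 ± 0.29, adjusted p = 0.285), and Tap1, the gene of a peptide transporter for MHC class I, read 6.58, 6.62 and 6.38, against 7.65 and 7.37 (0.99 ± 0.13, adjusted p = 0.0676). Both were among 6 of the 54 genes with stimulated arrays above all unstimulated ones, against 18.6% of all genes. In 27 of the 54, both stimulated arrays lay below all unstimulated ones, against 14.0%. The other measured GBP genes of the list were not among the 6. Gbp9 differed by -0.69, Gbp8 by -0.34 with both stimulated arrays below all unstimulated ones, Gbp11 by -0.17 and Gbp2b by -0.0073. None of these GBP genes passed the test.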

How the data were processed

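The deposited values are log2 expression values that the authors made with RMA, per the submitters' processing notes. The RMA version, the software and the arrays normalized together are not given in the sources used here, and neither is a genome build. The table holds 35556 probe sets on 5 arrays. It has no detection calls, so a dim gene may be background, and precision is limited by having 5 arrays.

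Per the platform annotation, 21789 probe sets have 1 gene symbol, 1621 have several and 12146 are not in the table used here. Of 19938 genes, 999 had more than 1 single-symbol probe set, of which the brightest by its mean over the arrays was kept. Groups and replicate numbers came from the sample titles. All genes were fitted without filter or covariate by lmFit and eBayes of limma 3.58.1 (R 4.3.3), with 3 residual and 0.649 prior degrees of freedom, and was tested on simulated data. Of all genes, 62.0% had a value that 2 or more arrays shared to 5 decimals, as had 9 of the 39 members.

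The members and all gene lists were chosen with earlier results of these data known. Every member could be named, as could ligand, receptor, JAK, STAT and IRF genes. Of the other pathway lists, called genes and up to 6 with the largest difference could be, and Gbp4 and Tap1 were added after their values were seen. Lists have counts and medians and no test. Motifs were searched on both strands in RefSeq promoters (GRCm38.p6). Alternatives were other variance models, array weights, filters, probe set summaries, normalizations and thresholds, a block for replicate number, and fits without single arrays. Counts of members that do not overlap without array 3, or against it alone, were added after seeing the data. Plots used matplotlib 3.10.9 in Python 3.11.15.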

Additional observations from a re-analysis of the deposited data

Results flagged for a closer look

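A probe set that the annotation gives to 2 immunity-related GTPase genes of the list at once, and that the counts, medians and tests therefore do not use, read higher on both stimulated arrays than on any unstimulated one. It stood at 8.91, 8.71 and 7.46 on unstimulated arrays 1, 2 and 3, and at 9.43 and 9.12 on stimulated arrays 1 and 2, a difference of 0.92 on the log2 scale. It was noted as a signal in data outside the comparison, belongs to neither gene alone and was not tested. The other 4 probe sets that unmeasured members share were also lowest, among unstimulated arrays, on array 3, and none had both stimulated arrays above all unstimulated ones. The one shared by a ubiquitin-like gene of the list went the other way by more, with 7.39, 7.29 and 6.36 against 5.47 and 6.17, a difference of -1.19. Those shared by GBP genes differed by 0.62 and 0.48, and that shared by a further IRG gene by 0.54.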

How the results depend on the processing

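The number of calls moved with most settings. The count of all genes called higher, 147, became 45 with robust variances, 826 among genes above the median, 319 among those above the lower quartile, 660 with median centring, 825 with quantile normalization and 755 at an adjusted p under 0.1, and the count called lower, 192, became 66, 715, 356, 526, 729 and 695. Both were 0 by limma with the replicate block (3568 genes at an unadjusted p under 0.05) and against unstimulated array 3 alone (3739 genes). Leaving out 1 array gave 0 to 361 higher and 0 to 413 lower, with 0 in each direction without unstimulated array 2 (3024 genes at an unadjusted p under 0.05). Members called lower numbered 3 among genes above the median, with median centring, with quantile normalization and at an adjusted p under 0.1, and 0 with robust variances, the replicate block and unstimulated array 3 alone, and 0 to 2 without 1 array. Members called higher numbered 0 to 1 without 1 array. Deviations of same-numbered arrays correlated at -0.14 and -0.06, which with 2 stimulated arrays cannot settle whether the numbers pair samples, and the labels do not say.

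Members with groups that did not overlap numbered 24 lower and 2 higher without unstimulated array 3, and 16 lower and 13 higher against it alone, where fewer arrays must be passed. The median over all 39 members was -0.34 to -0.09 without 1 array. The median of GBP and IRG genes was 1.58 against array 3 alone and -0.77 to 0.19 without 1 array, and that of IFIT, OAS and ISG15-cycle genes was -0.97 among genes above the median, where fewer of them were tested.

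Signs turned in genes with small differences or a wide unstimulated spread, and the cause was not tested. Against unstimulated array 3 alone the differences became 0.077 for Usp18, 0.023 for Oas2, 0.85 for Gbp3, 1.89 for Iigp1, 0.14 for Parp14, 0.31 for Trim25, 0.0063 for Stat2 and 0.38 for Ifit3b. With the replicate block they became -0.075 for Oas1a, -0.14 for Bst2, -0.11 for Ifitm3, -0.10 for Irf9 and 0.11 for Ifnb1. With median centring they became 0.0016 for Ifnb1, 0.0081 for Ifnlr1, 0.0195 for Irf3 and 0.0108 for Irf5, and with quantile normalization 0.0068 for Ifnlr1 and 0.0051 for Irf5. Without 1 array the range was -0.14 to 0.14 for Bst2, -0.77 to 0.19 for Gbp3, -0.11 to 0.75 for Ifitm3, -0.14 to 0.11 for Ifnb1, -1.91 to 0.19 for Iigp1, -0.0445 to 0.0411 for Irf3, -0.10 to 0.28 for Irf9, -0.0753 to 0.13 for Oas1a, -0.32 to 0.044 for Trim25, -0.12 to 0.014 for Tyk2 and -0.0215 to 0.28 for Zbp1. RMA values carry no detection calls, so signal over background limits what dim genes such as Mx1 can show.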
